A study of Mus musculus with 2 samples.

Results

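The genes described here are 10 components and targets of the nuclear factor kappa-B (NF-kB) pathway, chosen by symbol from the 32285 genes of each count matrix: Nfkb1, Nfkb2, Relb, Nfkbia, Nfkbiz, Tnfaip3, Tnip1, Birc3, Sod2 and Tnfaip2. All 10 were found and were followed across marker-defined cell classes in 2 single-cell libraries. One library was labelled Hep-ADKTg, from mice in which the albumin promoter drives extra adenosine kinase (Adk), the enzyme that turns adenosine into AMP, in hepatocytes. The other was labelled Hep-ADKWT, from control mice. Both groups were male, 5 months old and on standard chow, and non-parenchymal cells were released from the liver with collagenase. Whether a library held 1 mouse or pooled mice is not stated in the sources used here.

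NF-kB proteins are dimeric transcription factors that are held in the cytoplasm by inhibitors of the IkB family until a receptor such as that for tumour necrosis factor, or a Toll-like receptor, activates the IkB kinases. Several of the genes that NF-kB then switches on encode its own inhibitors, which ends the response. In the liver the pathway is known from macrophages and other immune cells, from endothelium and from hepatocytes, where it serves inflammation and cell survival.

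Tg and WT below stand for the libraries labelled Hep-ADKTg and Hep-ADKWT. The Tg library held 96481752 UMIs (unique molecular identifiers, each counting 1 captured transcript) in 17462 barcodes and the WT library 97135016 in 15663. Filtering left 14449 Tg and 12482 WT cells, with medians of 2785 UMIs per cell in Tg and 4807 in WT, and 58 kept barcodes occurred in both libraries. Pooled hepatocyte-like cells held 576 CPM of Adk in Tg and 708 CPM in WT, against the label. Within the deepest hepatocyte-like cluster Adk stood at 523 CPM in Tg and 454 CPM in WT, so the gene does not check the labels in 1 direction. Hepatocyte genes took 12.9% of the UMIs of kept cells in Tg and 1.84% in WT, although the label is non-parenchymal cells. Levels are UMIs summed over the cells of a class, scaled so that each class has the same total in each library (CPM), with exact 95% Poisson intervals. Ratios are log2 of Tg over WT with exact 95% intervals. All intervals cover counting error only. With 1 library per group there is no replicate check and no test, and genotype, animal, preparation and library cannot be told apart. A gene counts as measured in a class with at least 50 UMIs over both libraries, and as higher or lower there at a difference of at least 1.5-fold. The suffix "-like" marks a class that was named from marker genes alone. The 14 named classes include 12 with at least 50 cells in each library, which were compared. Orders of classes given below run over these 12. Basophil or mast cell-like cells (15 in Tg and 60 in WT) were too few to compare, and their levels of 4 genes would rank among the highest in WT. Tnfaip3 stood there at 137 CPM (8 UMIs) in Tg and 154 CPM (42 UMIs) in WT, Nfkbia at 326 CPM (19 UMIs) in Tg and 432 CPM (118 UMIs) in WT, Nfkbiz at 85.9 CPM (5 UMIs) in Tg and 190 CPM (52 UMIs) in WT, and Nfkb1 at 172 CPM (10 UMIs) in Tg and 209 CPM (57 UMIs) in WT.

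Promoters are shown for Nfkbia and for the genes with the lowest ratios in monocyte-like cells (Tnip1, Tnfaip3, Sod2) and the highest in fibroblast or mesothelial cell-like cells (Tnfaip2), since NF-kB binds the kappa-B consensus in the control regions of its feedback genes. The sequences come from RefSeq promoters of GRCm38.p6, run from 250 bases before to 50 after the start, and are written 5′ to 3′ on the gene's strand. Capitals mark matches to the kappa-B consensus, a motif of 10 bases searched on both strands, and neighbouring matches that overlap are merged.
Tnip1, chr11:54962891-54963190, minus strand: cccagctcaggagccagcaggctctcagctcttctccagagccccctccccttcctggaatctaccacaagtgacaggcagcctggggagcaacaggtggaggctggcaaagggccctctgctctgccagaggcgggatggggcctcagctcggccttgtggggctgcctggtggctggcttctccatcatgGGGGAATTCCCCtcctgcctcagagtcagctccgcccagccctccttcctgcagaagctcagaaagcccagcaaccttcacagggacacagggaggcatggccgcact
Tnfaip3, chr10:19015361-19015660, minus strand: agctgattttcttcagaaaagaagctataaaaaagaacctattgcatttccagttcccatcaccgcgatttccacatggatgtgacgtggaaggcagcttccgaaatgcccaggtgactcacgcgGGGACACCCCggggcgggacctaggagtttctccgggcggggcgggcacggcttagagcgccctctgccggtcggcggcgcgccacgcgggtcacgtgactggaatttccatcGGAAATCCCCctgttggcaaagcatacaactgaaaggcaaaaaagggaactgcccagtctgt
Sod2, chr17:13007589-13007888, plus strand: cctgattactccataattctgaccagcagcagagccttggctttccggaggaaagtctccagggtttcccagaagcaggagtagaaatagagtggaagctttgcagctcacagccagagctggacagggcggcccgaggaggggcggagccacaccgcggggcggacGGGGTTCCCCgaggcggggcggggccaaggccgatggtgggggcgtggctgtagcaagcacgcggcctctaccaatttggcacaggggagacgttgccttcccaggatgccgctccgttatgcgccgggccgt
Nfkbia, chr12:55492598-55492897, minus strand: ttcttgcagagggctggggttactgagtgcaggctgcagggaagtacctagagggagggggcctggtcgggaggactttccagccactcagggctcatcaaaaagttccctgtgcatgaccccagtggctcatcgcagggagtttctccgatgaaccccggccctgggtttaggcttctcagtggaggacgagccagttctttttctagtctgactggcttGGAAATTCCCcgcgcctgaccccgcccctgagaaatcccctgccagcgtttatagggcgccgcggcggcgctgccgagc
Tnfaip2, chr12:111442411-111442710, plus strand: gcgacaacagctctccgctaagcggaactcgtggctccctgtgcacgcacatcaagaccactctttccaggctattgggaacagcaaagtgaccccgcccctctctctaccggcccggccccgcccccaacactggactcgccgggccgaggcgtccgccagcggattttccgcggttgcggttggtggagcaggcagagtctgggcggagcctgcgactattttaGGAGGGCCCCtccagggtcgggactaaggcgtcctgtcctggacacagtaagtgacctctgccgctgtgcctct
A match was present in at least 1 promoter of 6 of the 7 genes with an entry, and in 2581 of 27025 genes (9.55%) over the whole table. The genes with a match were Nfkb2, Nfkbia, Sod2, Tnfaip2, Tnfaip3 and Tnip1. In Birc3 the consensus was not found in this window. Another Tnfaip3 promoter, at chr10:19011914-19012213 and not printed here, held no match. Nfkb1, Relb and Nfkbiz have no entry. The match nearest the start began 24 bases before it in Tnfaip2, 29 in Nfkbia, 83 in Sod2 and 12 in Tnfaip3, which holds another 125 bases before it, and those of Tnip1 began 58, 57 and 56 bases before it. The genes lie on different chromosomes for the most part: in GRCm38 the GENCODE annotation places Nfkb1 at chr3:135584655-135691547, Nfkb2 at chr19:46304320-46312385, Relb at chr7:19606217-19629438, Nfkbiz at chr16:55811375-55838899 and Birc3 at chr9:7848699-7873186. It places Nfkbia at chr12:55489410-55492647 and Tnfaip2 at chr12:111442469-111455018, the one shared chromosome among the 10. A match describes letters only, and binding was not measured.

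The difference between the libraries ran in opposite directions in different cells. In the class with monocyte and monocyte-derived macrophage markers (monocyte-like cells below) all 10 genes had lower levels in Tg. There 7 were at least 1.5-fold lower, where 8.88% of the 8899 genes measured were, and none was higher, where 6.64% were. Most cells of that class, 203 of 324 in Tg and 185 of 329 in WT, fell in a part with dendritic cell markers, described below. In that part 9 of the 10 genes lay below 0. In fibroblast or mesothelial cell-like cells 5 of 9 measured genes were at least 1.5-fold higher in Tg, where 6.00% of all genes were. In Kupffer cell-like cells 2 of 6 were higher, where 14.5% of all genes were. In lymphocyte-like, neutrophil-like and vascular endothelial cell-like cells, each taken as a pooled class, no measured gene of the 10 passed 1.5-fold in either direction.

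**Figure D1:**
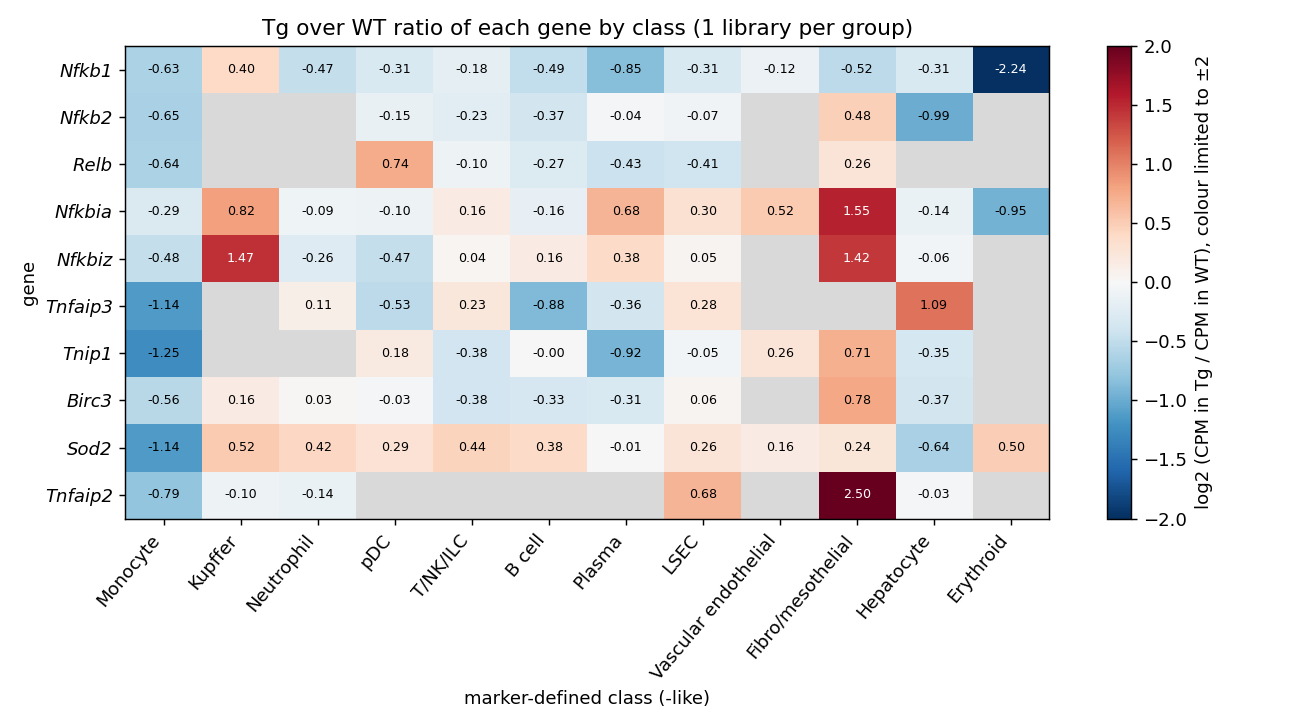
Log2 ratio of Tg over WT for each of the 10 genes (rows) in each of 12 marker-defined classes (columns). Grey cells had under 50 UMIs. The monocyte column is negative throughout, between -1.25 and -0.29, while the fibroblast or mesothelial column reaches 2.50 for Tnfaip2.

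The subunit genes were Nfkb1, which encodes the p105 precursor of p50, Nfkb2, which encodes the p100 precursor of p52, and Relb, the partner of p52 in the non-canonical pathway. Nfkb1 was measured in all 12 classes and lay below 0 in 11 of them, with a median log2 ratio of -0.39. Among the 12 classes its highest level in each library was in monocyte-like cells, 172 CPM (549 UMIs) in Tg and 266 CPM (1113 UMIs) in WT. The Tg level of monocyte-like cells overlapped that of Kupffer cell-like cells (161 CPM) within counting error, whereas in WT the next of the 12, plasmacytoid dendritic cell (pDC)-like at 188 CPM, stood apart. Nfkb1 also stood at 144 CPM in Tg and 178 CPM in WT in liver sinusoidal endothelial cell (LSEC)-like cells, a ratio of -0.31 (-0.43 to -0.18). In B cell-like cells it stood at 103 CPM in Tg and 146 CPM in WT, a ratio of -0.49 (-0.66 to -0.33). Neither ratio reached 1.5-fold.

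Nfkb2 had its highest level in B cell-like cells in each library, 62.1 CPM in Tg and 80.3 CPM in WT. In Tg that level overlapped fibroblast or mesothelial cell-like cells (44.1 CPM), and in WT it stood apart from monocyte-like cells (62.5 CPM). Relb was highest in monocyte-like cells, at 59.3 CPM in Tg and 92.4 CPM in WT, and next in B cell-like cells, at 39.2 CPM in Tg and 47.4 CPM in WT. A part of the monocyte-like class with dendritic cell markers, described below, held Relb at 71.3 CPM in Tg and 125 CPM in WT. The rest of that class held it at 33.5 CPM in Tg and 39.6 CPM in WT, not above B cell-like cells. Nfkb2 and Relb were near the floor of detection in hepatocyte-like cells, where Relb had 22 UMIs in Tg and 11 in WT. Across the 24 points formed by 12 classes and 2 libraries, the gene whose log2 level tracked Nfkb2 most closely was Relb (r = 0.911), followed by Map3k14 (r = 0.893), the kinase that starts p100 processing, and Birc2 (r = 0.886). For Relb the order was Nfkb2, Map3k14 (r = 0.888) and Tmem123 (r = 0.818). For Nfkb1 the nearest genes were Tgfb1 (r = 0.975), Nfya and Pitpna. The points share 2 libraries, differ in depth and hold related classes, so these correlations are descriptions.

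In pDC-like cells Relb stood at 29.7 CPM (33 UMIs) in Tg and 17.8 CPM (77 UMIs) in WT, a ratio of 0.74 (0.11 to 1.35). It was the only gene of the 9 measured there to pass 1.5-fold higher, where 5.33% of all genes did, and it turned to -1.13 when cells were thinned to 1000 UMIs. Median depths were 7527 UMIs in Tg and 9897 in WT, so thinning left a small part of the Relb UMIs. The thinned counts are not given, and the value cannot be read as a reversal. No gene of the 9 passed 1.5-fold lower, where 12.0% of all genes did.

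Nfkbia encodes IkB alpha, which captures NF-kB in the cytoplasm and is resynthesised after each activation. It was measured in all 12 classes, with 6 ratios below 0, 3 past 1.5-fold higher and 1 past 1.5-fold lower. In Tg its highest levels were 370 CPM (268 UMIs) in Kupffer cell-like, 356 CPM (226 UMIs) in fibroblast or mesothelial cell-like, 355 CPM (185 UMIs) in neutrophil-like and 324 CPM (380 UMIs) in vascular endothelial cell-like cells, neighbours whose intervals overlapped. In WT neutrophil-like cells led the 12 classes at 377 CPM (412 UMIs), followed by monocyte-like cells at 267 CPM, and fibroblast or mesothelial cell-like cells ranked 9 of 12 at 122 CPM. Kupffer cell-like cells ranked 5 of 12 in WT, at 210 CPM. The same classes thus held different ranks in the libraries.

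**Figure D2:**
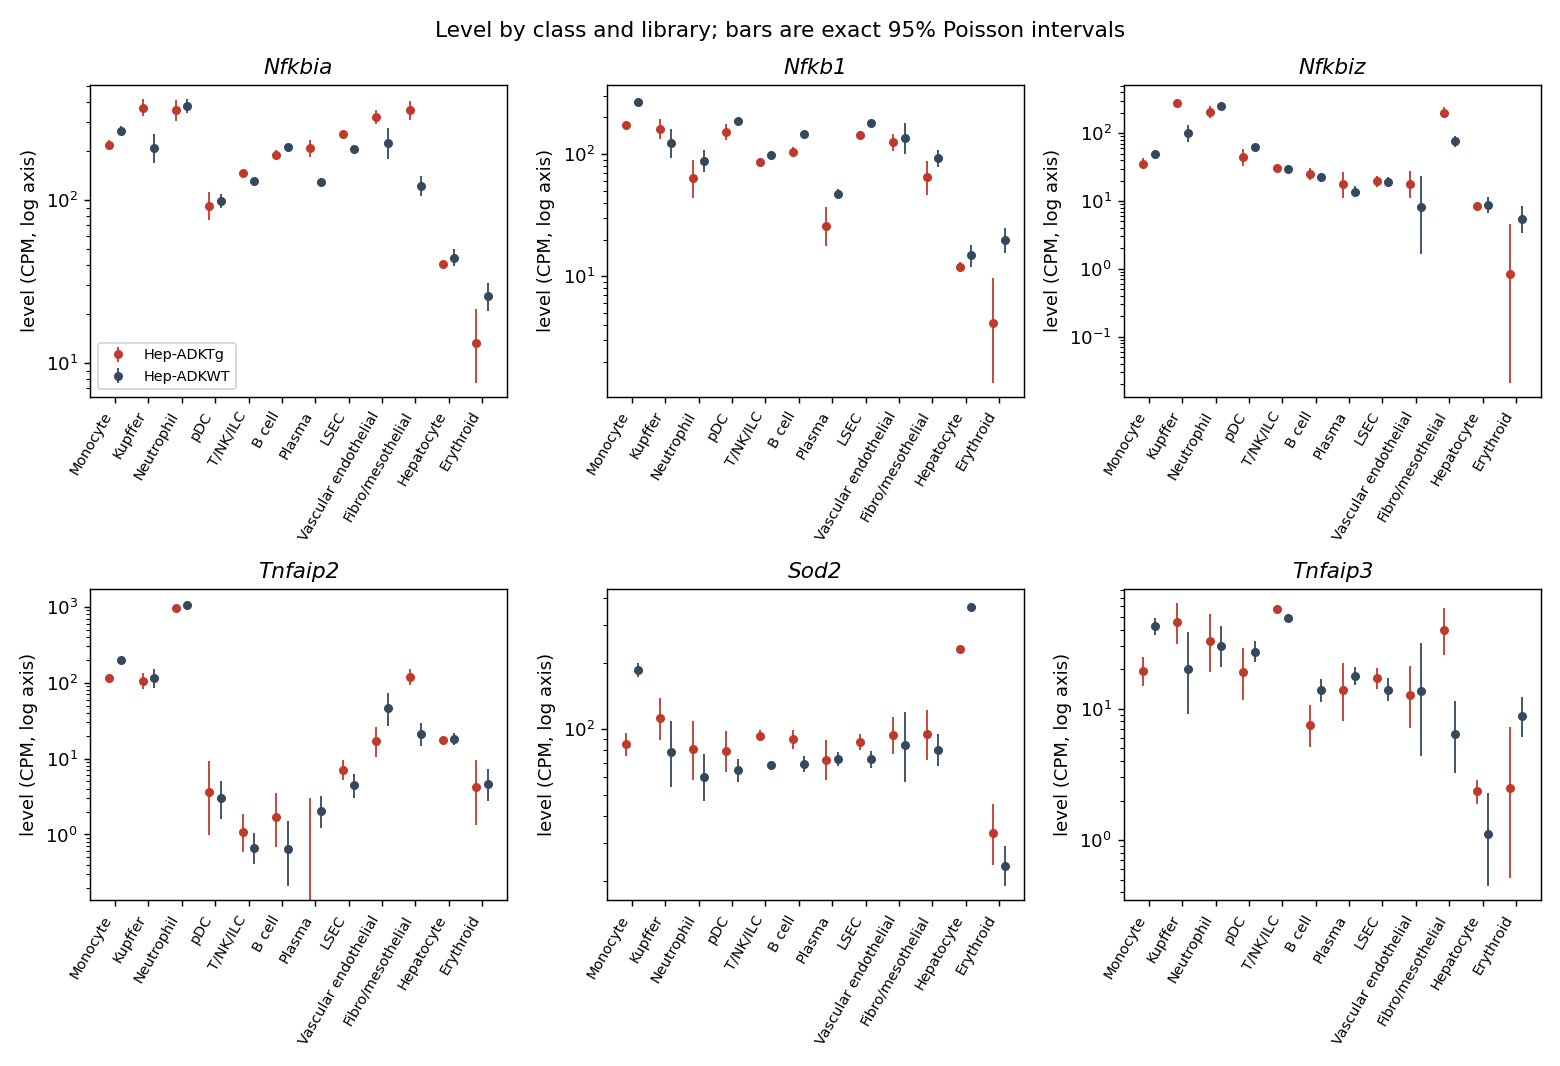
Level in CPM (log axis) of 6 genes in 12 marker-defined classes, with Tg in red to the left of WT in dark blue and bars for exact 95% Poisson intervals. Neutrophil-like cells hold the highest Tnfaip2 level in each library (968 CPM in Tg and 1064 CPM in WT), and a level of 0 has no point.

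Nfkbiz encodes IkB zeta, an atypical nuclear IkB protein that acts as a cofactor at a subset of inflammatory genes. Its levels separated the classes sharply in Tg, where the highest were Kupffer cell-like (277 CPM), neutrophil-like (207 CPM) and fibroblast or mesothelial cell-like cells (202 CPM), and the next class, pDC-like, stood apart at 45.0 CPM. Among the 12 classes in WT neutrophil-like cells stood apart at 248 CPM, followed by Kupffer cell-like cells at 100.3 CPM and fibroblast or mesothelial cell-like cells at 75.6 CPM, which overlapped pDC-like cells at 62.5 CPM. Of the 10 classes in which Nfkbiz was measured, 2 passed 1.5-fold higher and none lower.

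Tnfaip3 encodes A20, a ubiquitin-editing enzyme that shuts down signalling from tumour necrosis factor and Toll-like receptors, and Tnip1 encodes ABIN1, which binds A20 and ubiquitin chains. Among the 12 classes Tnfaip3 was highest in T, NK or ILC lymphocyte-like cells (lymphocyte-like cells) in each library, 56.9 CPM (677 UMIs) in Tg and 48.7 CPM (1380 UMIs) in WT. In Tg this level overlapped that of Kupffer cell-like cells, at 45.5 CPM from 33 UMIs. In WT it overlapped that of monocyte-like cells, at 42.7 CPM. In B cell-like cells Tnfaip3 stood at 7.50 CPM (31 UMIs) in Tg and 13.8 CPM (108 UMIs) in WT, a ratio of -0.88 (-1.51 to -0.30). It was the 1 gene of 9 lower there, where 7.66% of all genes were, and none was higher, where 8.87% were.

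Tnip1 was measured in 9 classes and ranged from -1.25 in monocyte-like to 0.71 in fibroblast or mesothelial cell-like cells. LSEC-like cells, the sinusoidal lining, held it at 52.6 CPM in Tg and 54.6 CPM in WT, a ratio of -0.05 (-0.26 to 0.16), so a 1.5-fold difference lay outside the interval. In lymphocyte-like cells it stood at 32.4 CPM (385 UMIs) in Tg and 42.2 CPM (1196 UMIs) in WT, a ratio of -0.38 (-0.55 to -0.21). Birc3 encodes cIAP2, a ubiquitin ligase of the tumour necrosis factor receptor complex that restrains cell death. It was highest in B cell-like cells, 117 CPM in Tg and 147 CPM in WT, followed by neutrophil-like cells at 104 CPM in Tg and 102 CPM in WT. In Tg these levels overlapped within counting error, and in WT they stood apart. Birc3 passed 1.5-fold in fibroblast or mesothelial cell-like cells alone of the 10 classes in which it was measured.

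Sod2 encodes the mitochondrial superoxide dismutase, which NF-kB induces but which many tissues express without it. It was highest in hepatocyte-like cells, 233 CPM (9214 UMIs) in Tg and 363 CPM (2297 UMIs) in WT, and supplied 71.2% of the UMIs of the 10 genes there in Tg and 77.3% in WT. Its pattern across the classes was unlike that of the other 9 genes, with correlations between -0.091 and 0.163 over the 24 points, and the nearest genes were Atp5k (r = 0.908), Cox19 and Atp5j. Tnfaip2 is a target of tumour necrosis factor whose protein shapes membranes. Neutrophil-like cells held it at 968 CPM (504 UMIs) in Tg and 1064 CPM (1163 UMIs) in WT, far above the next class in each library. In lymphocyte-like cells it had 13 UMIs in Tg and 19 in WT, under the minimum.

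Monocyte-like cells showed the most even shift. The class held 324 Tg and 329 WT cells with median depths of 9367 UMIs in Tg and 11918 in WT. The median log2 ratio of the 10 genes was -0.65, against -0.08 over all genes measured in the class. Sod2 was at 85.0 CPM (271 UMIs) in Tg and 187 CPM (783 UMIs) in WT, a ratio of -1.14 (-1.34 to -0.94). Tnip1 had 75 UMIs in Tg and 234 in WT, a ratio of -1.25 (-1.64 to -0.87). Tnfaip3 had 62 UMIs in Tg and 179 in WT, a ratio of -1.14 (-1.58 to -0.71). The other 4 past 1.5-fold lower were Nfkb1 (-0.63), Nfkb2 (-0.65), Relb (-0.64) and Tnfaip2 (-0.79). Nfkbia (-0.29), Nfkbiz (-0.48) and Birc3 (-0.56) stayed within 1.5-fold. Nfkbia, the inhibitor with the most UMIs, thus differed least.

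**Figure D3:**
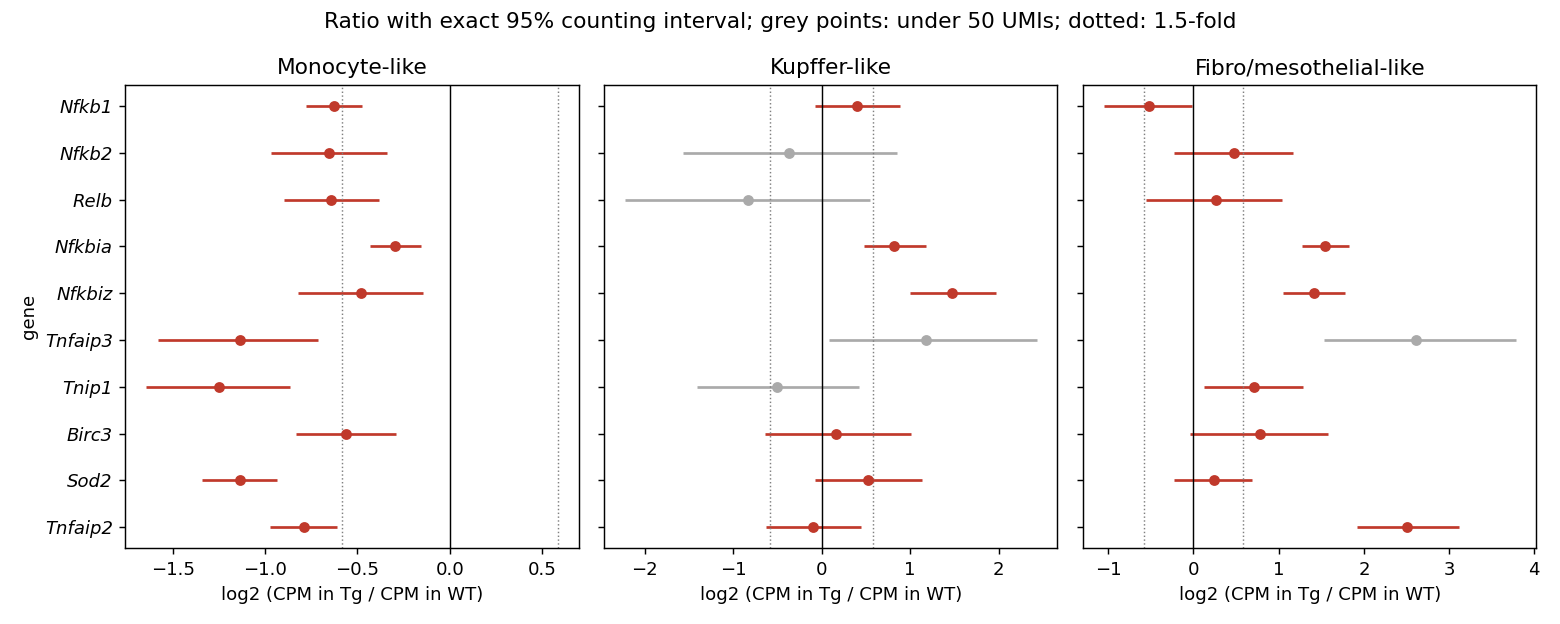
Log2 ratio of Tg over WT with exact 95% counting intervals for the 10 genes in monocyte-like, Kupffer cell-like and fibroblast or mesothelial cell-like cells. The x axes differ between panels, dotted lines mark 1.5-fold and grey points had under 50 UMIs. All 10 points lie below 0 in monocyte-like cells, and Nfkbia and Nfkbiz lie above 0 with their intervals in the other panels.

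At a finer clustering the monocyte-like class fell into 2 parts, a split chosen after seeing the data. The larger part (203 Tg and 185 WT cells) was led by Cst3, Plbd1 and MHC class II genes. It had all 7 cDC1 markers enriched, so the same naming rule called it cDC1-like. The other part (121 Tg and 144 WT cells) was led by Lyz2, Chil3 and F13a1. In the dendritic part 5 genes were at least 1.5-fold lower in Tg, where 11.0% of all genes were, and none higher, where 6.59% were. Of the 10, 9 lay below 0. In the Lyz2 part 5 were lower, where 8.84% of all genes were, none was higher, where 5.64% were, and all 10 lay below 0. Tnip1 was low in Tg in both, with ratios of -1.32 in the dendritic part and -1.07 in the Lyz2 part. Tnfaip3 stood at 21.2 CPM in Tg and 32.6 CPM in WT in the dendritic part, and at 15.8 CPM in Tg and 58.9 CPM in WT in the Lyz2 part. Tnfaip2 stood at 46.0 CPM in Tg and 35.7 CPM in WT in the dendritic part, a ratio of 0.36 (-0.06 to 0.79), and at 266 CPM in Tg and 464 CPM in WT in the Lyz2 part, a ratio of -0.80 (-1.01 to -0.60). For Relb the dendritic part gave -0.81 and the Lyz2 part -0.24, and for Nfkb2 the dendritic part gave -0.39 and the Lyz2 part -1.08. The differences between the parts were not tested.

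The make-up of the class and the RNA of other cells in it differed between the libraries. Xcr1, 1 of the 7 cDC1 markers, stood at 161 CPM in Tg and 44.1 CPM in WT. The dendritic part held 203 of the 324 Tg cells and 185 of the 329 WT cells. The 11 T cell markers summed to 387 CPM in Tg and 970 CPM in WT, all 11 with a UMI in each library. The 11 NK or ILC1 markers summed to 179 CPM in Tg (10 with a UMI) and 515 CPM in WT (11 with a UMI). The 7 neutrophil markers summed to 1956 CPM in Tg and 225.5 CPM in WT, and the 7 erythroid markers to 53.0 CPM in Tg and 3919 CPM in WT. Clec4f, a defining Kupffer cell marker, had no UMI in either library of this class. Cells holding a lineage marker of another class made up 26.9% of the class in Tg and 48.0% in WT. Without them, 237 Tg and 171 WT cells remained, 9 of the 10 genes were at least 1.5-fold lower and the median ratio was -0.77. No share or median of all genes is given for the remaining cells, so this count has no background beside it. The part of these markers in the result was not tested. Centred on the median of all genes, 4 were lower.

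Other genes of the pathway were followed by lists. Of the 80 measured in monocyte-like cells, 30 were at least 1.5-fold lower and 1 higher, with a median of -0.37, where 8.88% of all genes were lower and 6.64% higher. Among other NF-kB targets 14 of 21 were lower and none higher, with a median of -0.74, including the chemokine Cxcl10 at 97.2 CPM in Tg and 360 CPM in WT. Ligands were lower in 5 of 6 cases, and adaptors and kinases in 3 of 23, a share near that of all genes, among them Ikbke at 5.02 CPM in Tg and 16.7 CPM in WT. Of the 12 receptors 4 were lower and 1, the double-stranded RNA receptor Tlr3, was higher, at 85.3 CPM in Tg and 21.7 CPM in WT. Of the other subunits and IkB proteins, Rel, Rela, Nfkbib and Bcl3 lay between -0.33 and -0.16, and 1 of 6, the nuclear IkB gene Nfkbid at -0.89, was past 1.5-fold lower. Among other negative regulators 3 of 12 were lower, and of these Tnip3, a relative of Tnip1, stood at 23.2 CPM in Tg and 68.5 CPM in WT. The immediate early list, which reports handling stress among other things, had 1 of 19 lower and none higher in this class. Heat shock genes were higher in 2 of 10 and lower in none, with a median of 0.29. The part of these lists was not tested.

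In fibroblast or mesothelial cell-like cells several of the genes were higher in Tg, and Tnip1 and Tnfaip2 passed 1.5-fold here in the direction opposite to that in monocyte-like cells. This class of 88 Tg and 135 WT cells was led by Igfbp5, Igfbp6 and Upk3b, with Dcn at 7216 CPM in Tg and 7409 CPM in WT. A cluster led by Ecm1, Abcc9 and Reln (153 Tg and 45 WT cells) matched the same marker list best but stayed unnamed. So did another led by Gsn, Dpt and Col1a2 (43 Tg and 13 WT cells). Nfkbia gave 0.95 (0.24 to 1.75) in the Reln cluster and 0.53 (-0.50 to 1.665) in the Dpt cluster. Nfkbiz gave 0.05 (-1.55 to 2.08) in the Reln cluster and 0.57 (-1.15 to 2.66) in the Dpt cluster. In the named class Nfkbia stood at 356 CPM (226 UMIs) in Tg and 122 CPM (208 UMIs) in WT, a ratio of 1.55 (1.27 to 1.83). Nfkbiz stood at 202 CPM (128 UMIs) in Tg and 75.6 CPM (129 UMIs) in WT, a ratio of 1.42 (1.05 to 1.78). Tnfaip2 stood at 120 CPM (76 UMIs) in Tg and 21.1 CPM (36 UMIs) in WT, a ratio of 2.50 (1.91 to 3.12). Those UMIs came from 12 of 88 Tg cells and 13 of 135 WT cells. Tnip1 (0.71) and Birc3 (0.78, with an interval of -0.04 to 1.57) completed the 5 genes past 1.5-fold higher. None was lower, where 10.8% of all genes were, and the median was 0.71 against -0.07 over all genes. Nfkb1, the subunit, stood at 64.6 CPM in Tg and 92.7 CPM in WT, a ratio of -0.52 (-1.05 to -0.02). Tnfaip3 had 25 UMIs in Tg and 11 in WT, under the minimum.

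The same cells differed in the immediate early list, of which 13 of 16 measured genes were at least 1.5-fold higher in Tg and none lower, with a median of 2.25, where 6.00% of all genes were higher. Heat shock genes were higher in 6 of 11. Among other NF-kB targets 9 of 15 were higher and none lower: the chemokine Cxcl1 had 76 UMIs in Tg and 4 in WT, Ccl2 stood at 140 CPM in Tg and 9.97 CPM in WT, and Zfp36, which destabilises inflammatory transcripts, at 382 CPM in Tg and 52.2 CPM in WT. Of 39 pathway genes measured in all, 12 were higher and 2 lower, the regulator N4bp1 (-0.78) and the ligand Ltb (-0.72), where 6.00% of all genes were higher and 10.8% lower. The part of these lists in the NF-kB result was not tested. The 7 erythroid markers summed to 48.9 CPM in Tg and 4433 CPM in WT, and the 9 Kupffer cell markers to 4.73 CPM in Tg and 141 CPM in WT. Cells holding a lineage marker of another class made up 25.0% of the class in Tg and 45.9% in WT, and without them 4 of the 9 genes were higher. No share of all genes is given for the remaining cells.

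Kupffer cell-like cells, named for the resident liver macrophages, numbered 210 in Tg and 91 in WT, with median depths of 1669 UMIs in Tg and 2622 in WT. Nfkbiz stood at 277 CPM (201 UMIs) in Tg and 100.3 CPM (45 UMIs) in WT, a ratio of 1.47 (0.99 to 1.97). Nfkbia stood at 370 CPM (268 UMIs) in Tg and 210 CPM (94 UMIs) in WT, a ratio of 0.82 (0.48 to 1.17). Nfkb1 (0.40), Sod2 (0.52), Birc3 (0.16) and Tnfaip2 (-0.10) stayed within 1.5-fold, and none was lower, where 8.49% of all genes were. Of other NF-kB targets 5 of 13 were higher and 2 lower, where 14.5% of all genes were higher and 8.49% lower, with the chemokines Cxcl2 at 164 CPM in Tg and 24.5 CPM in WT, Ccl4 at 607 CPM in Tg and 165 CPM in WT, and Ccl3 at 215 CPM in Tg and 89.2 CPM in WT. The lowest ratios were those of the chemokine Ccl5 (-2.26), the lipopolysaccharide co-receptor Cd14 (-1.20) and the adhesion gene Icam1 (-0.88). Heat shock genes were higher in 6 of 7, and immediate early genes in 5 of 15 with 1 lower and a median of 0.35. The part of these lists was not tested.

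The make-up of this class differed between the libraries. Its leading genes were C1qa, C1qb and C1qc, but the defining Kupffer marker Clec4f stood at 312 CPM in Tg and 82.5 CPM in WT, Cd5l at 581 CPM in Tg and 114 CPM in WT, and the monocyte marker Cx3cr1 at 444 CPM in Tg and 1016 CPM in WT. Only 26.7% of Tg cells and 17.6% of WT cells held a UMI of Clec4f, Vsig4, Timd4, Cd5l or Marco, and most of the class thus rests on C1q genes at this depth. Among those 56 Tg and 16 WT cells, chosen after seeing the data, Nfkbiz gave 1.56 and Nfkbia 0.41, and Nfkb1 (-1.07) and Birc3 (-0.82) were past 1.5-fold lower. No share of all genes is given for these cells. T cell markers summed to 443 CPM in Tg and 996 CPM in WT in the whole class. The part of class make-up in the result was not tested.

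**Figure D4:**
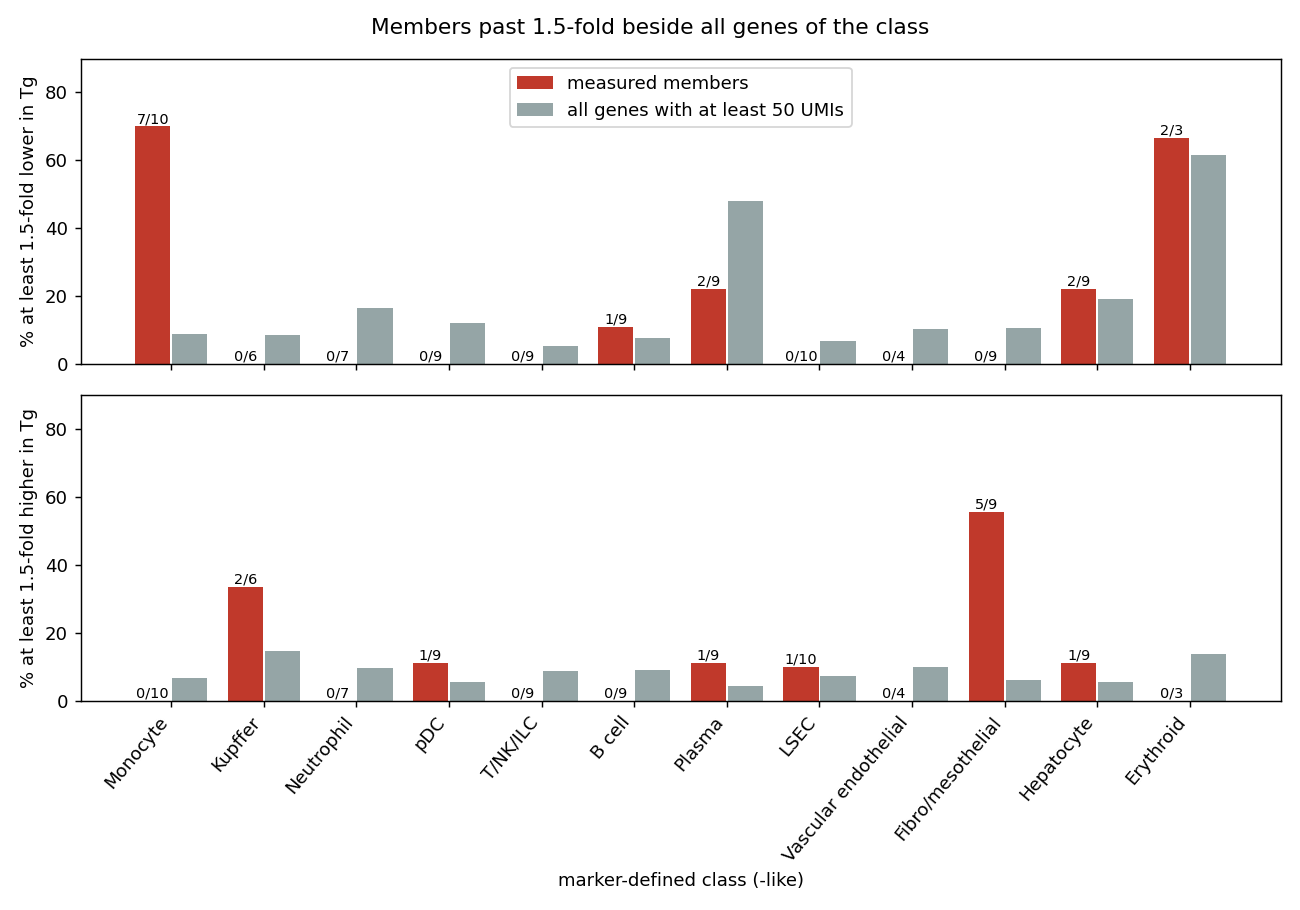
Percent of the measured genes among the 10 (red, with counts) and of all genes with at least 50 UMIs (grey) that were at least 1.5-fold lower (top) or higher (bottom) in Tg, by class. Red stands well above grey for lower genes in monocyte-like cells (7 of 10) and for higher genes in fibroblast or mesothelial cell-like cells (5 of 9).

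In hepatocyte-like cells (6125 in Tg and 1544 in WT) 2 of 9 measured genes were lower, where 19.2% of all genes were, and 1 was higher, where 5.39% were. Sod2 gave a pooled ratio of -0.64 (-0.71 to -0.58), but none of the 5 hepatocyte-like clusters reached 1.5-fold, with ratios of -0.35, 0.08, -0.01, 0.02 and -0.32. In the deepest cluster (815 Tg and 72 WT cells) Sod2 stood at 204 CPM in Tg and 206 CPM in WT, a ratio of -0.01 (-0.14 to 0.11). In the cluster with most WT cells (1830 in Tg and 1327 in WT) it stood at 419 CPM in Tg and 536 CPM in WT, a ratio of -0.35 (-0.46 to -0.25). Nfkbia gave -0.14 pooled and 0.75 (0.38 to 1.16) in the deepest cluster, at 34.6 CPM in Tg and 20.5 CPM in WT. In the cluster with most WT cells it gave 0.09 (-0.18 to 0.35), and the other 3, with 1 to 9 UMIs of Nfkbia in WT, gave -0.72, 1.38 and 0.54 with intervals that held 0. Tnfaip3, the gene past 1.5-fold higher, had 93 UMIs in Tg and 7 in WT, with an interval of -0.01 to 2.44. Nfkb2, the other lower gene, had 60 UMIs in Tg and 19 in WT and turned to 0.97 as a mean over cells.

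LSEC-like cells were measured for all 10 genes, and 1 was higher, where 7.32% of all genes were, and none lower, where 6.82% were. That gene was Tnfaip2, with 48 UMIs in Tg and 32 in WT. Nfkbia stood at 255 CPM in Tg and 206 CPM in WT, a ratio of 0.30 (0.20 to 0.40). Sod2 gave 0.26 (0.09 to 0.43). In vascular endothelial cell-like cells (234 in Tg and 58 in WT) 4 genes were measured and none passed 1.5-fold in either direction, where 10.5% of all genes were lower and 9.74% higher. Nfkbia stood there at 324 CPM in Tg and 225 CPM in WT, a ratio of 0.52 (0.18 to 0.89). In the larger vascular cluster (204 Tg and 41 WT cells) Nfkbia gave 0.78 (0.35 to 1.23), past 1.5-fold.

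Lymphocyte-like cells, the class with the most UMIs of these genes in WT, had 9 measured genes between -0.38 and 0.44, where 5.50% of all genes were at least 1.5-fold lower and 8.75% higher. Sod2 stood at 93.1 CPM in Tg and 68.6 CPM in WT, a ratio of 0.44 (0.33 to 0.55), and Birc3 at 22.7 CPM in Tg and 29.4 CPM in WT, a ratio of -0.38 (-0.58 to -0.18). Single clusters of this class went past 1.5-fold in each direction. Tnfaip3 gave 0.70 (0.28 to 1.14) in a T cell cluster of 1765 Tg and 230 WT cells. In an NK or ILC1 cluster of 83 Tg and 526 WT cells it gave -1.04 (-1.93 to -0.27). No share of all genes is given by cluster. In neutrophil-like cells the 7 measured genes lay between -0.47 and 0.42, where 16.5% of all genes were lower and 9.70% higher. Tnfaip2 gave -0.14 (-0.29 to 0.01) there. Tg and WT cells fell largely into separate clusters in the lymphocyte, B cell and LSEC classes. For B cell-like cells, 1226 of 1235 Tg cells lay in 1 cluster and 1895 of 2044 WT cells in another.

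In plasma cell-like cells (55 in Tg and 311 in WT) 2 of 9 genes were lower, where 48.0% of all genes were, and 1 was higher, where 4.24% were. Nfkbia stood at 208 CPM (256 UMIs) in Tg and 130 CPM (1213 UMIs) in WT, a ratio of 0.68 (0.48 to 0.88). Nfkb1 (-0.85) and Tnip1 (-0.92) were the lower genes, and thinning to 1000 UMIs turned Nfkb1 to 0.30 and Tnip1 to 1.79. Before thinning, Nfkb1 had 32 UMIs in Tg and 440 in WT, and Tnip1 had 16 in Tg and 231 in WT. When thinned, a gene without UMIs in 1 library was entered at 3 UMIs. Thinned counts are not given, so these values cannot be read as reversals. In erythroid cell-like cells 2 of 3 measured genes were lower, where 61.5% of all genes were, and none was higher, where 13.7% were. There Nfkbia, at 16 UMIs in Tg and 99 in WT, turned to 0.28 on thinning and to 3.23 without cells holding other lineage markers. The entry of 3 UMIs for a gene without UMIs applied to both settings, and their counts are not given. T cell markers summed to 74.1 CPM in Tg and 666 CPM in WT in the erythroid class, and to 544 CPM in Tg and 1230 CPM in WT in the plasma class. Their part in the result was not tested.

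Other pathway genes past 1.5-fold are named for the remaining classes by their highest and lowest ratios. Their counts are set beside the shares of all genes in the same class. In hepatocyte-like cells 12 of 56 were lower, where 19.2% of all genes were, and 5 higher, where 5.39% were. There Tnfrsf1b (1.20), Cxcl10 (1.03) and Tlr3 (0.91) were highest and Socs1 (-2.59), Ltb (-2.58) and Ccl5 (-2.27) lowest. In LSEC-like cells 9 of 62 were lower, where 6.82% of all genes were, and none higher, where 7.32% were, led by Bcl2a1b (-2.43), Ccl5 (-2.18) and Ltb (-1.05). In pDC-like cells 10 of 54 were lower, where 12.0% of all genes were, and 3 higher, where 5.33% were. There Ccl4 (2.81), the ligand Tnf (2.01) and Plaur (1.19) were highest and Bcl2a1b (-1.47), Ccl5 (-1.22) and Ikbkg (-1.16) lowest. In B cell-like cells 6 of 60 were lower, where 7.66% of all genes were, and 2 higher, where 8.87% were. Among these Tnfrsf1a (1.36) and Rnf11 (0.74) were higher and Ticam1 (-0.74), Map3k14 (-0.70) and Icam1 (-0.67) lowest. In lymphocyte-like cells 5 of 70 were lower, where 5.50% of all genes were, and 3 higher, where 8.75% were. Of these Cxcl1 (3.04), Ltbr (2.04) and Tnip2 (0.82) were highest and Irak3 (-0.83), Zc3h12a (-0.66) and Marcksl1 (-0.62) lowest. In neutrophil-like cells 11 of 46 were lower, where 16.5% of all genes were, and 1 higher, where 9.70% were. Of these Cd14 (0.77) was higher and Ccl5 (-2.45), Icam1 (-2.07) and Zc3h12a (-1.13) lowest. In vascular endothelial cell-like cells 5 of 31 were lower, where 10.5% of all genes were, and 5 higher, where 9.74% were. Of these Cyld (1.20), Il1r1 (1.07) and Vcam1 (0.97) were highest and Ccl5 (-1.65), Otulin (-0.90) and Ikbkb (-0.89) lowest. Ccl5 was thus among the lowest in hepatocyte-like, LSEC-like, pDC-like, neutrophil-like and vascular endothelial cell-like cells alike. Lymphocyte-like cells made up 17.5% of kept cells in Tg and 36.8% in WT. Lymphocyte RNA carried into other classes was not estimated, and its part in these ratios was not tested. In plasma cell-like cells 32 of 65 were lower, where 48.0% of all genes were, and none higher, where 4.24% were. In erythroid cell-like cells 15 of 20 were lower, where 61.5% of all genes were, and none higher, where 13.7% were. Plasma cell-like cells had Ccl4, Tnf and Ikbke lowest, with 1, 1 and 2 UMIs in Tg and 376, 52 and 88 in WT, and erythroid cell-like cells had Socs1, Irf1 and Malt1 lowest, with 1, 2 and 5 UMIs in Tg and 63, 82 and 77 in WT.

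Hepatocyte-derived RNA, estimated from the hepatocyte list, made up a larger share of the UMIs in Tg in each of the other classes compared. The estimate was 6.52% in Tg and 2.04% in WT for monocyte-like, 17.3% in Tg and 4.61% in WT for LSEC-like and 16.5% in Tg and 4.11% in WT for B cell-like cells. With that profile subtracted, 5 genes were lower in monocyte-like cells, with a median of -0.58. No share of all genes is given with the profile subtracted. Sod2 lay above 0 in 9 of the 11 classes other than hepatocyte-like cells as deposited, and in 6 of 11 with the profile subtracted. It turned to -0.30 in neutrophil-like, -0.55 in erythroid cell-like and -0.06 in LSEC-like cells, and was -1.30 in monocyte-like cells.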

How the data were processed

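The authors deposited 1 matrix of raw UMI counts per library, with genes as rows and barcodes as columns. The submitters' processing notes name Cell Ranger 6.1.2, the build GRCm38/mm10, Seurat 4.0.2 and R 4.1.0, whereas the file headers name an earlier Cell Ranger release. The series text names SoupX for ambient RNA, but the deposited counts are whole numbers and were treated as uncorrected. Gene positions were taken from GENCODE M21, in which 32158 of 32285 identifiers were found.

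Barcodes with at least 500 UMIs, 200 genes and at most 20% mitochondrial UMIs were kept. The automatic Scrublet threshold marked no cell in either library and had not worked, so cells with a score over 0.2 were removed (404 in Tg and 479 in WT). Counts per 10000 were log-transformed, and Leiden clusters (resolution 1.0) came from 2000 variable genes, 30 components and 15 neighbours in scanpy 1.11.5. Clusters were named by whichever marker list was most enriched on average, given 3 or more enriched markers (a rule set after seeing the data), and stayed unnamed where markers of an unrelated class competed. They also stayed unnamed where their leading genes held more markers of another class. Where the leading genes held no marker of the class, a shallow cluster stayed unnamed. So did one with only a minority of that list enriched. T cell and NK or ILC markers were pooled. The authors' own annotation was not used here, and names may differ from it.

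Intervals of ratios come from the exact conditional binomial distribution. The interval and fold code was tested on simulated data. The 10 genes, the lists, the markers and the classes were chosen with earlier results of these data known. The 10 genes were named in every class. Of the other pathway lists, up to 3 highest and 3 lowest genes per class past 1.5-fold are named; any others were chosen after their values were seen. Genes most like a member were the 3 with the highest Pearson correlation of log2(CPM + 10), among genes with at least 200 UMIs. Alternatives covered scaling (TMM of edgeR 4.0.16, size factors of DESeq2 1.42.0), free RNA, thinning, doublets, mitochondrial share, resolution, other-lineage markers and the fold.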

Additional observations from a re-analysis of the deposited data

Results flagged for a closer look

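For 4 genes the difference between the libraries passed 1.5-fold in opposite directions in different classes, with counting intervals that leave out 0, and the differences between classes were not tested. Relb was -0.64 in monocyte-like cells and 0.74 in pDC-like cells on the log2 scale of Tg over WT, and thinning to 1000 UMIs turned the pDC-like value to -1.13. Nfkbia was 1.55 in fibroblast or mesothelial cell-like, 0.82 in Kupffer cell-like and 0.68 in plasma cell-like cells, and -0.95 in erythroid cell-like cells. The erythroid value, the one in the opposite direction, equals the median of all genes there (-0.94) within counting error, and turned to 0.28 on thinning and to 3.23 without cells holding other lineage markers. Tnip1 was 0.71 in fibroblast or mesothelial cell-like cells, -1.25 in monocyte-like cells and -0.92 in plasma cell-like cells, where thinning gave 1.79. The thinned values of these genes rest on few UMIs and cannot be read as reversals. When thinned or without other-lineage cells, a gene without UMIs in 1 library was entered at 3 UMIs. Tnfaip2 was 2.50 in fibroblast or mesothelial cell-like and 0.68 in LSEC-like cells, and -0.79 in monocyte-like cells. In the dendritic part, which held most cells of the monocyte-like class, Tnfaip2 was 0.36.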

How the results depend on the processing

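Of 1214 ratios of single genes under the alternatives, 1098 lay within the counting interval of the main ratio and 110 moved outside it. Many alternatives reuse the same or nearly the same cells, and intervals are wide at low counts. The 1214 are thus not separate checks. A change of sign was counted as turning round only where the main ratio was past 1.5-fold. Sod2 in neutrophil-like cells, at 0.42 and then -0.30 with the hepatocyte profile subtracted, thus counted as moved. By that rule 6 turned round. Those 6 were Nfkbia in erythroid cell-like cells (0.28 when thinned to 1000 UMIs and 3.23 without cells holding other lineage markers), Nfkb2 in hepatocyte-like cells (0.97 as a mean over cells), Nfkb1 (0.30) and Tnip1 (1.79) in plasma cell-like cells and Relb in pDC-like cells (-1.13), the last 3 when thinned. In thinned and reduced sets of cells, a gene without UMIs in 1 library was entered at 3 UMIs. The counts behind the thinned values are low and not given, so those turns cannot be read as reversals. The cause was not tested.

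The count lower in monocyte-like cells, 7 in the report, was 3 at 2-fold and 4 after centring on the median of all genes, and ran from 5 to 9 under the others. In fibroblast or mesothelial cell-like cells 3 were higher at 2-fold and 1 was lower when thinned. In Kupffer cell-like cells 4 were higher when thinned and 1 at 2-fold, and among cells holding a defining marker 1 was higher and 2 lower. In LSEC-like cells 2 were higher when thinned, and 0 at 2-fold, with the hepatocyte profile subtracted, with doublets kept, at 10% mitochondrial UMIs, at resolution 0.5 and in cells with at least 2000 UMIs. In hepatocyte-like cells the lower count was 1 under TMM, DESeq2 factors, the total without hepatocyte and similar genes, thinning, removal of other-lineage cells and centring, and 0 at resolution 2.0 and 2-fold; the higher count was 2 as a mean over cells and at resolution 2.0. In B cell-like cells 0 were lower at 10% mitochondrial UMIs and at 2-fold. In erythroid cell-like cells 1 was lower under TMM, DESeq2 factors, the reduced total, thinning, removal of other-lineage cells, 2-fold and centring; 1 was higher under the first 4 of these, as a mean over cells and after centring, and 2 without other-lineage cells. In plasma cell-like cells 0 were lower under TMM, DESeq2 factors, 2-fold and centring, and 1 when thinned or without other-lineage cells; 2 were higher under TMM, DESeq2 factors, the mean over cells and centring, 4 when thinned or without other-lineage cells, and 0 at 2-fold. In neutrophil-like cells 1 was lower with doublets kept, 2 higher when thinned, and 1 higher in cells with at least 2000 UMIs and after centring. In lymphocyte-like cells 1 was lower as a mean over cells, and 1 lower and 1 higher when thinned. In vascular endothelial cell-like cells 1 was higher under TMM, DESeq2 factors, hepatocyte subtraction and 10% mitochondrial UMIs, and 2 when thinned. In pDC-like cells 1 was lower as a mean over cells and without other-lineage cells, 3 when thinned, and 0 were higher when thinned or at 2-fold. Shares of all genes under these alternatives are not given.

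Cells of at least 2000 UMIs, centring and the Kupffer marker restriction were added after seeing the data. TMM moved log2 ratios up by 0.58 in erythroid, 0.44 in plasma, 0.33 in hepatocyte and at most 0.12 in the other classes. Of all genes with at least 200 UMIs, 5.09% were lower in monocyte-like cells, 3.99% higher in fibroblast or mesothelial cell-like cells and 14% higher and 5.22% lower in Kupffer cell-like cells. No paired analysis was possible because each group is 1 library. With 1 library per group, no variation between animals could be measured, and genes under 50 UMIs in a class stayed unread.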
